A study of Mus musculus with 15 samples.

Results

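The expression of 10 genes that mark macrophages and antigen presentation by MHC class II (Cd68, Adgre1, Csf1r, Mrc1, C1qa, C1qb, Lyz2, H2-Aa, H2-Ab1 and Cd74) was examined in mouse models of high-grade neuroendocrine lung carcinoma. The genes were taken by name, 10 of the 55359 genes in the RNA-seq matrix, and each name matched 1 gene. The matrix held 15 samples in 5 groups of 3. The 46LCNEC_cell samples were 3 dishes (A, B and C) of the adherent 46LCNEC line, which came from a large cell neuroendocrine carcinoma (LCNEC) of a QKO mouse given Ad-CMVcre, an adenovirus with Cre under the broadly active CMV promoter. The 57SCLC_cell samples were 3 flasks (A, B and C) of the suspension line 57SCLC, from a small cell lung carcinoma (SCLC) of a QKO mouse given Ad-K5cre, in which the keratin 5 promoter drives Cre. QKO animals are Rb1 F/F, Rbl1-/- and Trp53 F/F and carry 1 further floxed tumor suppressor gene. The 46LCNEC_allo tumors (312, 319 and 321) and the 57SCLC_allo tumors (275, 316 and 317) grew from those lines, injected in Matrigel under the skin of immunocompetent syngeneic QKO mice, so the host cells in a tumor have the Rbl1-/- background and floxed alleles that were not exposed to Cre. The Lung samples (CT3, CT4 and CT5) were normal lung of littermates of the allograft hosts. Their own genotype, and the age and sex of the animals, were not given in the sources used here. Each tumor type is represented by 1 cell line, and no subcutaneous tissue without tumor was among the samples used here.

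Macrophages are phagocytes that clear dead cells, secrete complement and present antigen, and tumors often hold many of them. Their survival depends on the receptor encoded by Csf1r, which binds the ligands CSF1 and IL-34. MHC class II molecules are dimers of an α and a β chain, encoded in the mouse by genes such as H2-Aa and H2-Ab1. CD74, the invariant chain, escorts them to the compartment where peptides are loaded, and transcription of all of these genes depends on the transactivator CIITA. Among the other genes, Cd68 encodes a lysosomal glycoprotein, Adgre1 the F4/80 antigen, Mrc1 the mannose receptor CD206, C1qa and C1qb are chains of complement C1q, and Lyz2 encodes lysozyme M. In lung, Lyz2 is also a product of alveolar type 2 epithelial cells, and dendritic cells and B cells express the class II genes at high levels. The class II genes can be induced in other cells by interferon gamma.

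Promoters of RefSeq (GRCm38.p6, an older build than that of the matrix) were available for 5 of the 10 members, and 6 windows of the 250 bases before the annotated start are shown because they carry the known control motifs of the 2 gene groups. H2-Aa (chr17:34287824-34288073, minus strand) is set beside its neighbour H2-Eb1 (chr17:34305617-34305866, plus strand). Capitals mark the X1 core GCAAC, the cyclic AMP response element TGACGTCA of the X2 box and the Y box ATTGG, each searched on both strands.
H2-Aa: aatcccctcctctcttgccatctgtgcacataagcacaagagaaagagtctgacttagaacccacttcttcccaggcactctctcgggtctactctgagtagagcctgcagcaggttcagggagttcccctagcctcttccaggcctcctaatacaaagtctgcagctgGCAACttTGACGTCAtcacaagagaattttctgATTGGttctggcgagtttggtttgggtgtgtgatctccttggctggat
H2-Eb1: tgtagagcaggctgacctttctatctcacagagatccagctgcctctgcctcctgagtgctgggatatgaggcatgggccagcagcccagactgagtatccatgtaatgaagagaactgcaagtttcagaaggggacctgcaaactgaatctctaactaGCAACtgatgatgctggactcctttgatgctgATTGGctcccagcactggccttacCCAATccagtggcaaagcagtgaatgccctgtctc
In H2-Aa the X1 core began 81 bases before the start, the response element 74 and the Y box 48, in the order X1, X2, Y that is textbook for class II promoters. In H2-Eb1 the X1 core began at 91 and the Y box at 59, a Y box on the other strand stood at 35, and TGACGTCA was not in the window. Of 32851 promoter windows of that length, 29.9% held GCAAC, 33.8% ATTGG, 10.6% both and 1.55% TGACGTCA. The C1q and lysozyme promoters are shown for the core AGGAAGT bound by PU.1, the myeloid regulator encoded by Spi1, which stands in capitals as ACTTCCT on the printed strand. They are C1qb (chr4:136886201-136886450), C1qc (chr4:136892915-136893164), Lyz2 (chr10:117282273-117282522) and its near copy Lyz1 (chr10:117292869-117293118), all on the minus strand.
C1qb: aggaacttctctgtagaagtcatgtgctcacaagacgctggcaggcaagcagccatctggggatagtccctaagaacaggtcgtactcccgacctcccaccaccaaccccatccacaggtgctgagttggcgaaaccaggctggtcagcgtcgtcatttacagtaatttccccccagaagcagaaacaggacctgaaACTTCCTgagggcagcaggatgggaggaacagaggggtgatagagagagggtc
C1qc: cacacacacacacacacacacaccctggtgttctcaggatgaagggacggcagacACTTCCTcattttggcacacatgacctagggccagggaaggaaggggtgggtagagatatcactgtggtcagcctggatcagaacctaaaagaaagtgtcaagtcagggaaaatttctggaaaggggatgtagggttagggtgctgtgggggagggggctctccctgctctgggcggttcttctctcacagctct
Lyz2: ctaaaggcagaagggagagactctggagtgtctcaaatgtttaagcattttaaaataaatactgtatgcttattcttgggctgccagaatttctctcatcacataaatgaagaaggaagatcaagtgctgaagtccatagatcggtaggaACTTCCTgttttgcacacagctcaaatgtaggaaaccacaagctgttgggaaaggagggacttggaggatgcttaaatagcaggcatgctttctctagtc
Lyz1: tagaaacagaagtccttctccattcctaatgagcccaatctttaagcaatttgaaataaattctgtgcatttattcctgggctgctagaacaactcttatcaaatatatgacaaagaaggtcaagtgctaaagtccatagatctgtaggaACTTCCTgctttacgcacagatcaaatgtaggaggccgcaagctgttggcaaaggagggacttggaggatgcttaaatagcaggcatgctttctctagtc
The core began 53 bases before the start in C1qb, 195 in C1qc and 100 in both lysozyme genes. It was also in the window of Mrc1, at 211, and not in that of Cd68, and 7.69% of all windows held it. The letters of the class II motifs were not confined to the class II genes. The Cd68 window held GCAAC at 243 and 44 and the Y box at 230, 84 and 60, all on the other strand. Mrc1 held a Y box at 80 and Lyz1 at 216. The 2 lysozyme windows were identical at 200 of 248 aligned bases (80.6%). A motif match describes letters, and factor binding was not measured in these samples.

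The libraries held between 9480244 and 44876572 counted reads, with a median of 26502525. Values are normalized counts, that is, reads divided by a size factor for each library, so that 1 read is worth between 0.521 and 2.39 normalized counts. A gene was called higher or lower when limma on log2(normalized count + 1) gave p-values that, adjusted by Benjamini and Hochberg's method over all genes tested, did not exceed 0.01, and the log2 fold change (log2FC) was 1 or more in either direction. That scale understates changes of genes near 0. The floxed genes Rb1 and Trp53 and the null gene Rbl1 still gave exon reads in all cells and tumors, so these counts do not check the genotypes. Flask C of 57SCLC_cell stood apart from A and B, for example in Rb1 (777 against 229 and 236 normalized counts), and leaving it out changed no member's call except C1qb in the comparison of the lines' changes. Alveolar type 2 genes summed to 0.48% to 0.68% of their Lung level in the tumors.

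The members lie on 6 chromosomes in the GRCm39 build used for the matrix, with coordinates from a later GENCODE release than the one counted. Cd68 lies on chromosome 11 (69555037 to 69557067), Mrc1 on chromosome 2 (14234151 to 14336926), Adgre1 on chromosome 17 (57665573 to 57790527) and Lyz2 on chromosome 10 (117111557 to 117118346). C1qa (136623223 to 136626161), the related chain C1qc (136616466 to 136620376) and C1qb (136606009 to 136613511) are neighbours on chromosome 4. H2-Ab1 (34476663 to 34488393) and H2-Aa (34493404 to 34506798) are neighbours in the MHC on chromosome 17, while Csf1r (61229714 to 61266535) and Cd74 (60936899 to 60945731) lie on chromosome 18. All 10 are annotated as protein-coding, and the values are sums over their exons. Some exons overlap genes on the opposite strand, by 1461 bases for Csf1r with Hmgxb3, by 118 for H2-Aa with H2-Eb1, by 534 for Lyz2 with Gm67237 and by 61 for C1qb with Gm69251. Cd74 shares 88 bases with the microRNA gene Mir5107 on its own strand. The strand setting of the counting was not stated, so reads from these stretches cannot be told apart.

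**Figure D1:**
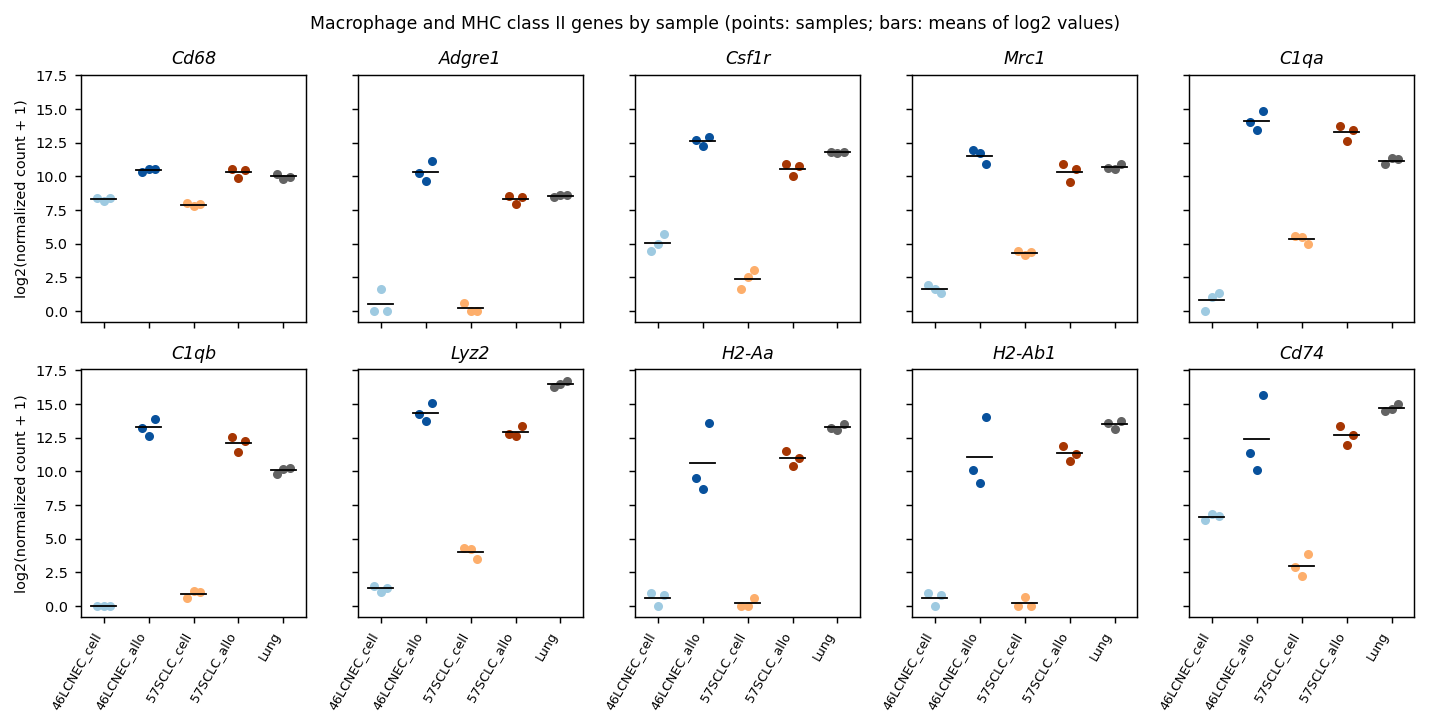
Each panel shows log2(normalized count + 1) of 1 gene in the 15 samples, as points by group, with bars at the group means of the log2 values. The cultured cells lie lowest for every gene, all 6 tumors lie above the cells, and tumor 321 is the separate high point of 46LCNEC_allo for H2-Aa, H2-Ab1 and Cd74.

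In the cultured lines, several of the members were at or near the detection limit. C1qb had no read in any 46LCNEC dish and 5 reads in all over the 3 flasks of 57SCLC. H2-Aa and H2-Ab1 each had 2 reads over the 46LCNEC dishes and 1 read over the 57SCLC flasks, and Adgre1 had 2 and 1. With a floor of 3 reads over the group, these levels cannot be told from absence, except the 5 reads of C1qb in 57SCLC, which lie just above it. Cd68 was read in every culture, with 336, 295 and 331 normalized counts in 46LCNEC cells and 254, 225 and 242 in 57SCLC cells. This lysosomal gene stood at 0.311 and 0.233 times the mean of Lung in the cultured lines. Cd74 measured 83.5, 114 and 99.9 normalized counts in 46LCNEC cells against 6.55, 3.62 and 13.5 in 57SCLC cells, with no overlap. C1qa measured 45.8, 44.0 and 31.3 normalized counts in 57SCLC flasks, although its partner chain C1qb had 0.545, 1.206 and 1.04 and C1qc had none, whereas 46LCNEC dishes held 0, 1.10 and 1.54 of C1qa.

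Between the lines in culture, 6 of the members reached the minimum for testing (10 normalized counts in at least 3 samples). Mrc1 (log2FC 2.67, SE 0.25), C1qa (4.55, SE 0.38) and Lyz2 (2.71, SE 0.30) were higher in 57SCLC_cell, and Csf1r (−2.65, SE 0.44) and Cd74 (−3.64, SE 0.40) were lower. Their adjusted p (limma) ran from 1.3e-05 for C1qa to 0.000721 for Csf1r. For comparison, 23.9% of all genes tested were higher in that contrast and 22.2% lower. All of these levels were small beside tissue: Mrc1 stood at 20.7, 16.9 and 19.8 normalized counts in 57SCLC flasks, Lyz2 at 18.5, 18.1 and 10.4, and Csf1r at 21.6, 30.9 and 51.5 in 46LCNEC dishes. Cd68 did not pass (−0.41, SE 0.12, adjusted p = 0.0112). Against Lung, all 10 members were lower in both lines, where 35.0% of genes tested were lower in 46LCNEC_cell and 32.7% in 57SCLC_cell.

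In the allografts every member was called higher than in the cells injected, 10 of 10 for both lines, where 14.4% of all genes tested were higher in 46LCNEC_allo and likewise 14.4% in 57SCLC_allo. For all 10 genes the lowest tumor lay above the highest culture. The smallest changes were those of Cd68, 4.47-fold in 46LCNEC (log2FC 2.16, SE 0.12, adjusted p = 2.14e-05, limma) and 5.37-fold in 57SCLC (2.39, SE 0.17, adjusted p = 1.57e-05). In the LCNEC model C1qb went from 0 in each dish to 9528, 6398 and 15522 normalized counts, at least 11189-fold higher when the floor of 3 reads is taken over the group. In bulk RNA, a change in the number of cells of a type and a change in RNA per cell cannot be told apart, and this holds for every contrast here.

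Other ratios against near-empty cultures carry wide counting intervals. For H2-Aa, 2 reads in the LCNEC cultures give a ratio of 8084 with a 95% exact Poisson interval of 2238 to 66750.3. For H2-Ab1 in 57SCLC, 1 read gives 13528 with an interval of 2428 to 534317. Adgre1 gave 1957 in the LCNEC model (542 to 16159.8) and 1754 in the SCLC model (315 to 69272). These intervals cover counting error only. Csf1r, with more reads in culture, was 187-fold higher in 46LCNEC_allo (log2FC 7.57, SE 0.32) and 331-fold in 57SCLC_allo (8.15, SE 0.38). Cd74 was 190-fold higher in 46LCNEC_allo (5.76, SE 1.26, adjusted p = 0.00738), a call that is lost without any one of the 46LCNEC dishes or without tumor 312 (adjusted p = 0.0136 to 0.0343, limma), and 908-fold in 57SCLC_allo (9.70, SE 0.46, adjusted p = 1.53e-06).

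Whether the tumors matched normal lung differed from gene to gene. Cd68 measured 1299, 1463 and 1533 normalized counts in 46LCNEC_allo, 1472, 949.9 and 1451 in 57SCLC_allo and 1171, 899 and 1020 in Lung. It was not called in either tumor type against Lung (log2FC 0.48, adjusted p = 0.0177, and 0.31, adjusted p = 0.167). Adgre1 measured 1252, 793 and 2276 normalized counts in 46LCNEC_allo, 366, 242 and 348 in 57SCLC_allo and 362, 387 and 386 in Lung. The F4/80 gene was thus above all Lung samples in each LCNEC tumor (3.81-fold, log2FC 1.79, SE 0.36, adjusted p = 0.0049), and the SCLC tumors overlapped Lung (−0.27, SE 0.17, adjusted p = 0.196). The LCNEC call is lost without tumor 312 or any one Lung sample (adjusted p = 0.0165 to 0.0232, limma).

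Csf1r, the growth factor receptor, measured 6801, 4867 and 7817 normalized counts in 46LCNEC_allo, 1956, 1055 and 1718 in 57SCLC_allo and 3639, 3359 and 3637 in Lung. The 3 groups did not overlap, with LCNEC tumors on top and SCLC tumors at the bottom. The level in 57SCLC_allo was 2.25-fold lower than in Lung (log2FC −1.216, SE 0.21, adjusted p = 0.00101). Without tumor 316 the log2FC was −0.95, just under the fold needed. The level in 46LCNEC_allo passed the adjusted p (0.00614) but not the fold (0.85, SE 0.18), and passed both without tumor 319 (1.04). The mannose receptor gene Mrc1 measured 3968, 3352 and 1905 normalized counts in 46LCNEC_allo, 1903, 767 and 1517 in 57SCLC_allo and 1541, 1517 and 1906 in Lung. Its groups overlapped Lung in both tumor types, and it was not called (0.84, adjusted p = 0.0349, and −0.34, adjusted p = 0.345).

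The complement chains were the members highest in tumors relative to lung. C1qa measured 16686, 11214 and 29839 normalized counts in 46LCNEC_allo, 14066, 6304 and 11324 in 57SCLC_allo and 1957, 2577 and 2475 in Lung. Every tumor lay above every Lung sample, by 8.24-fold in the LCNEC model (log2FC 2.93, SE 0.34, adjusted p = 0.000467) and 4.52-fold in the SCLC model (2.11, SE 0.28, adjusted p = 0.000213). C1qb measured 6020, 2799 and 4975 normalized counts in 57SCLC_allo and 886, 1169 and 1207 in Lung, and was 9.64-fold (3.19, SE 0.32) and 4.23-fold (2.02, SE 0.27) higher in the LCNEC and SCLC tumors. The neighbouring chain C1qc was higher too (log2FC 2.89 and 2.06). Within a sample the chains kept nearly 1 proportion: C1qa over C1qb was 1.75 to 1.92 in 46LCNEC_allo, 2.25 to 2.34 in 57SCLC_allo and 2.05 to 2.21 in Lung.

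Lyz2 ran the other way. The lysozyme gene measured 19383, 13992 and 34162 normalized counts in 46LCNEC_allo, 6985, 6192 and 10541 in 57SCLC_allo and 79789.6, 91001 and 108582 in Lung, and the 3 groups did not overlap. It was 4.14-fold lower than Lung in the LCNEC tumors (log2FC −2.14, SE 0.34, adjusted p = 0.0018) and 11.8-fold lower in the SCLC tumors (−3.59, SE 0.21, adjusted p = 2.59e-06). The LCNEC call narrowly fails without CT4 or CT5 (adjusted p = 0.0104 and 0.0106, limma). Its near copy Lyz1, whose transcript is identical to it at 96.0% of 1268 aligned bases, measured 14982, 19696 and 21878 normalized counts in Lung but 34.4 to 374 in the LCNEC tumors and 35.9 to 55.2 in the SCLC tumors. Lyz1 was 120-fold and 401-fold lower than Lung. Lyz2 over Lyz1 was 4.62 to 5.33 in Lung, 91.4 to 563 in 46LCNEC_allo and 112 to 211 in 57SCLC_allo. No stretch of the read length (150 bases) is shared by the transcripts, the longest shared run being 118 bases, but how reads matching both were assigned was not stated, so their split is uncertain.

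Markers of alveolar type 2 cells and of alveolar macrophages moved in the same direction. Of 8 alveolar type 2 markers, 8 were lower in each tumor type, Sftpc from between 58062 and 85865 normalized counts in Lung to between 2.11 and 22.6 in the tumors. Of 7 alveolar macrophage markers, 5 were tested, with 5 lower in 46LCNEC_allo and 4 in 57SCLC_allo, and the summed level was 0.45% to 1.89% of the mean of Lung in LCNEC tumors and 4.96% to 11.1% in SCLC tumors. Their defining markers Marco and Siglecf were at 0 to 1.11 and 5.26 to 18.5 normalized counts in LCNEC tumors, and Ear1 and Ear2 at 0 in all 15 samples. Markers of other macrophages and of monocytes were divided. Of 25 other macrophage genes tested, 11 were higher and 2 lower than Lung in 46LCNEC_allo, and 9 higher and 5 lower in 57SCLC_allo. Of 6 monocyte markers, 1 was higher and 1 lower in 46LCNEC_allo, and 2 higher and 2 lower in 57SCLC_allo. Among them Vcan was high in the cultured lines too (means 6120 in 46LCNEC and 4317 in 57SCLC, against 241 in Lung). Of all genes tested, 13.4% were higher and 22.1% lower in 46LCNEC_allo, and 18.9% and 26.9% in 57SCLC_allo. The part of any of these cells in the Lyz2 difference was not tested.

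**Figure D2:**
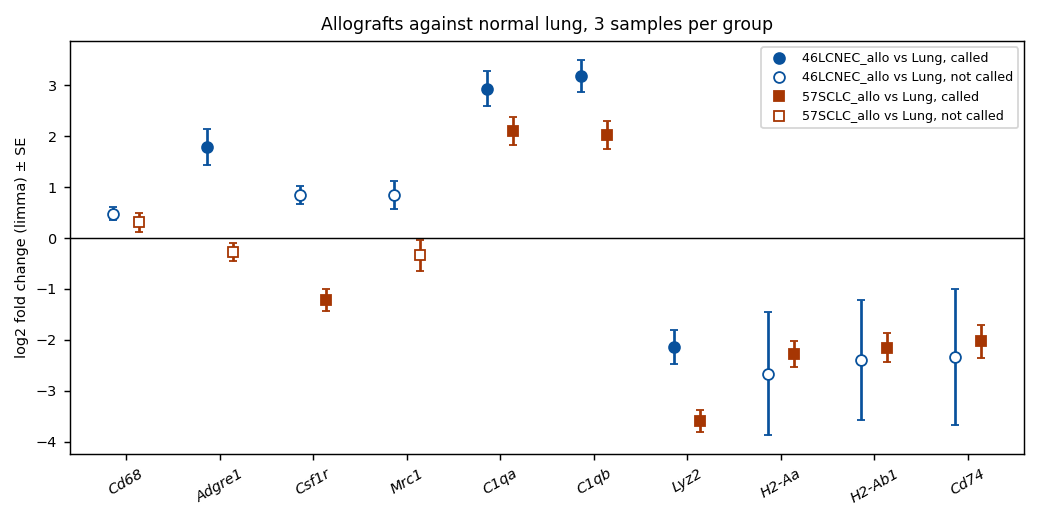
Points show the log2 fold change of each member in allografts against Lung (limma, 3 samples per group), with bars of 1 SE, circles for 46LCNEC_allo, squares for 57SCLC_allo and filled symbols for called genes. C1qa and C1qb lie above 0 and Lyz2 below 0 in both tumor types, and the class II genes of 46LCNEC_allo have the widest bars.

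Counted over the members, 3 were higher (Adgre1, C1qa and C1qb) and 1 lower (Lyz2) in 46LCNEC_allo than in Lung, where 13.4% of all genes tested were higher and 22.1% lower. In 57SCLC_allo, 2 were higher (C1qa and C1qb) and 5 lower (Csf1r, Lyz2, H2-Aa, H2-Ab1 and Cd74), where 18.9% were higher and 26.9% lower. The 2 contrasts share the Lung samples. Without tumor 321, which differs from its group as described next, the LCNEC tumors had 8 members called, with Mrc1 (log2FC 1.15) among the 4 higher. The shares above belong to the fit with all 3 tumors. The share of all genes called without tumor 321 is not given here, so that count is not read as a result about the members.

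The class II genes were split within the LCNEC tumors. H2-Aa, the α chain, measured 743, 407 and 12649 normalized counts in tumors 312, 319 and 321, against 2959, 1373 and 2080 in 57SCLC_allo and 9652, 8799 and 11473 in Lung. H2-Ab1, the β chain, measured 1105, 560 and 16687 normalized counts in 46LCNEC_allo, 3849, 1760 and 2550 in 57SCLC_allo and 12086, 9076 and 13795 in Lung. Cd74 measured 2697, 1093 and 52617 normalized counts in 46LCNEC_allo, 10705, 4074 and 6742 in 57SCLC_allo and 23159, 25907 and 33257 in Lung. For these genes tumor 321 lay above every Lung sample, and tumors 312 and 319 lay below every SCLC tumor. Relative to the mean of tumors 312 and 319, tumor 321 held 22.0 times the H2-Aa, 20.0 times the H2-Ab1 and 27.8 times the Cd74.

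The macrophage genes of the same tumor did not differ by such factors. Tumor 321 held 1.11 times the Cd68 of the mean of tumors 312 and 319, 1.34 times the Csf1r, 2.23 times the Adgre1, 2.14 times the C1qa, 1.95 times the C1qb, 2.05 times the Lyz2 and 0.520 times the Mrc1. The ratio of H2-Ab1 to C1qb was therefore 0.0875 and 0.116 in the other LCNEC tumors and 1.08 in tumor 321, with 0.513 to 0.639 in SCLC tumors and 7.76 to 13.6 in Lung. H2-Ab1 over H2-Aa stayed between 1.03 and 1.49 in all 9 tissue samples.

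**Figure D3:**
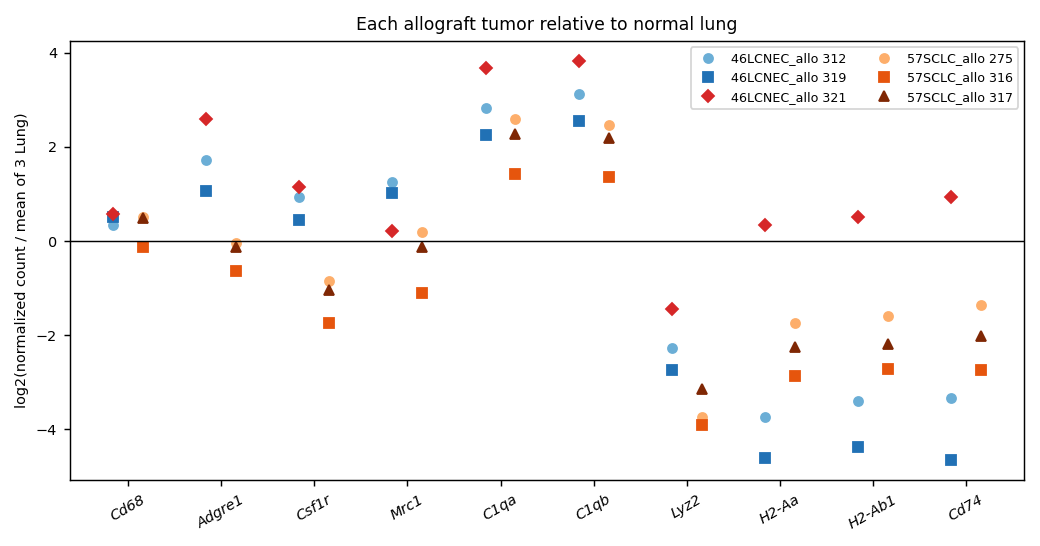
Each symbol shows the log2 ratio of 1 tumor's normalized count to the mean of the 3 Lung samples, with LCNEC tumors on the left and SCLC tumors on the right of each gene. Tumor 321 (red diamonds) lies near or above 0 for H2-Aa, H2-Ab1 and Cd74, far above the other LCNEC tumors. For the macrophage genes it lies outside their range by smaller steps, as the highest LCNEC tumor for each gene except Mrc1, where it is lowest. Among the 10 members 9 are highest there, against 36.6% of all genes with at least 10 normalized counts in 3 or more samples.

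With all 3 tumors, the LCNEC contrast against Lung gave wide errors and no call for the class II genes (H2-Aa log2FC −2.66, SE 1.203, adjusted p = 0.0944; H2-Ab1 −2.40, adjusted p = 0.119; Cd74 −2.34, adjusted p = 0.167). Without tumor 321, H2-Aa (−4.17, adjusted p = 9.29e-05), H2-Ab1 (−3.87, adjusted p = 0.00022) and Cd74 (−3.98, adjusted p = 0.000388) were lower than in Lung by limma. Every sample was left out in turn, but tumor 321 is singled out here for its values of these same genes. These p-values depend on that choice and are no independent support. In 57SCLC_allo they were lower with all samples, by 4.67-fold for H2-Aa (−2.28, SE 0.25, adjusted p = 8.72e-05), 4.28-fold for H2-Ab1 (−2.15, SE 0.28, adjusted p = 0.000204) and 3.83-fold for Cd74 (−2.03, SE 0.32, adjusted p = 0.000671). In a fit over all 15 samples, whose common spread includes tumor 321, these SCLC calls are lost (adjusted p = 0.0314, 0.0387 and 0.0791, limma).

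Other lists were read in the same tumor. Among the 15 other class II pathway genes, 11 were highest of the 3 LCNEC tumors in tumor 321 and 1 was lowest, where 36.6% of all genes with at least 10 normalized counts in 3 of the 15 samples were highest there and 28.5% lowest. Ciita, the class II transactivator, measured 45.0, 25.3 and 480.1 normalized counts in tumors 312, 319 and 321, 52.7, 51.0 and 38.6 in 57SCLC_allo and 252, 227 and 276 in Lung. H2-Eb1, a further class II β chain gene, measured 505, 248 and 558 in tumors 312, 319 and 321, and Rfx5, a class II transcription factor gene chosen after its values were seen, 236, 421 and 392, so that not all of the pathway stood apart. H2-Eb1 was also uneven between the Lung samples (9659, 389 and 6888), where H2-Ab1 was high in each. Its values in single tumors therefore say little about the class II level. Cd3e, a chain of the T cell receptor complex, measured 3.97, 2.11 and 150.5 in tumors 312, 319 and 321. The 7 T cell markers summed to 51.9% of the mean of Lung in tumor 321 and to 4.24% and 2.69% in tumors 312 and 319, and the 7 B cell markers to 17.6% against 2.83% and 3.83%. The SCLC tumors lay between, with T cell sums of 11.5% to 17.8% and B cell sums of 4.64% to 9.37%. Ifng, the gene of interferon gamma, had 16.6 normalized counts in tumor 321 and 0 in tumors 312 and 319. Cxcl9, a chemokine gene induced by it, was 59.6 times as high in tumor 321 as in the mean of tumors 312 and 319. High Cxcl9 was not particular to tumor 321 (2118 normalized counts). The SCLC tumors, with low class II values, held 483 to 1101 and Lung 36.6 to 109. The 6 monocyte markers were divided, with 4 highest in tumor 321. Ly6c2 was 68.0 times as high there as in that mean, while the 2 lowest, F13a1 and Vcan, stood at 0.141 and 0.449 times. Both were also expressed by cultured 46LCNEC cells, at means of 415 and 6120 normalized counts against 161 and 241 in Lung. In these tumors they therefore do not measure monocytes alone. The dendritic cell markers summed to 20.0% of Lung in tumor 321 and to 13.3% and 14.5% in the others. Zbtb46 (mean 908 normalized counts in 46LCNEC_allo) was the largest part of that sum, and 7 of these 8 markers were highest in tumor 321. So were 8 of 9 neutrophil markers, which summed to 61.5% of Lung against 25.6% and 15.5% in tumors 312 and 319. All 6 pan-leukocyte genes were highest there as well. The part of these cells and signals in the class II values was not tested.

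**Figure D4:**
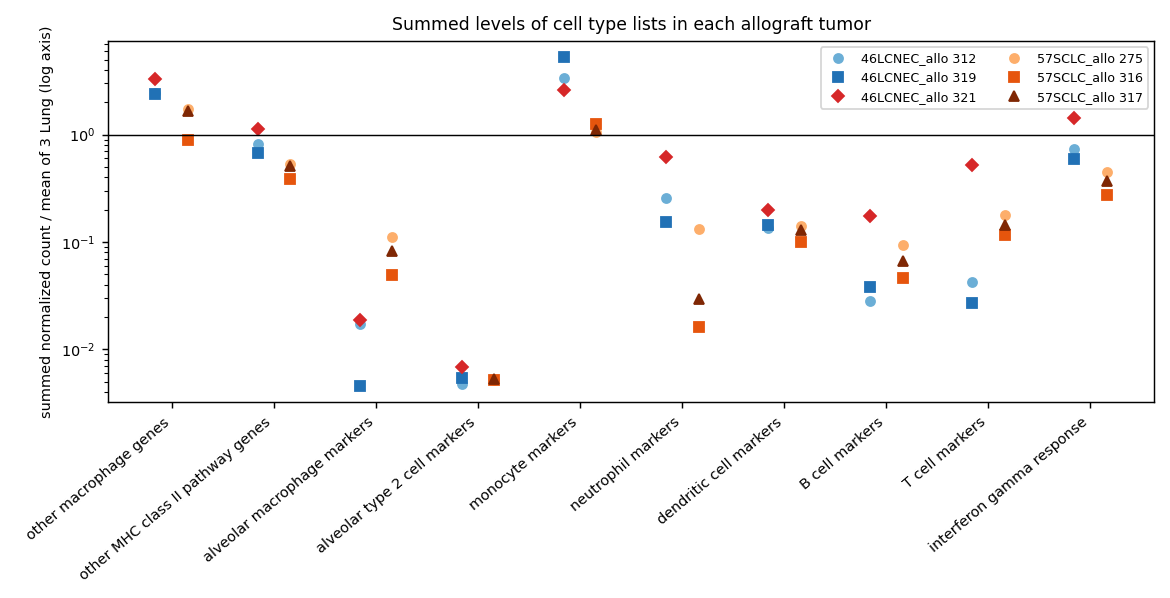
Each symbol shows the summed normalized counts of a gene list in 1 tumor divided by the mean sum of the 3 Lung samples, on a log axis, with LCNEC tumors on the left and SCLC tumors on the right of each list. The T cell sum of tumor 321 (red diamond) is 0.519 of Lung, against 0.0424 and 0.0269 in the other LCNEC tumors, while the other macrophage genes lie between 0.896 and 3.30 in all 6 tumors. Apoe is the largest part of that macrophage sum (means 59133 in 46LCNEC_allo, 35723 in 57SCLC_allo and 24811.5 in Lung). Spp1, also in the sum, is high in cultured 46LCNEC cells too (mean 17677), so the sum does not measure macrophage content.

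The tumor types were also compared with each other. Adgre1 (4.52-fold, log2FC −2.06, SE 0.38, adjusted p = 0.00384) and Csf1r (4.12-fold, −2.06, SE 0.27, adjusted p = 0.000834) were lower in 57SCLC_allo than in 46LCNEC_allo, 2 of 10 members, where 14.2% of all genes tested were lower. The call for Adgre1 is lost without tumor 312 or any one SCLC tumor (adjusted p = 0.0140 to 0.0191, limma). Lyz2 (−1.45, adjusted p = 0.0122), Mrc1 (−1.17, adjusted p = 0.043) and C1qb (−1.17, adjusted p = 0.041) did not overlap between the groups but did not pass, and Lyz2 passed without tumor 319 (−1.74, adjusted p = 0.00586). C1qa (−0.83) and Cd68 (−0.17) overlapped. The class II genes gave 0.38 (H2-Aa), 0.25 (H2-Ab1) and 0.31 (Cd74) with SE above 1, and without tumor 321 H2-Aa was called higher in 57SCLC_allo (1.89, adjusted p = 0.00827). That call depends on leaving out the tumor singled out for its class II values, so it is no independent support. Without tumor 319 the signs of the class II values turned (−0.59, −0.73 and −0.84).

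The change from culture to tumor was compared between the lines with an interaction contrast over the 12 cell and tumor samples. It was smaller in 57SCLC than in 46LCNEC for Mrc1 (difference of log2FC −3.85, SE 0.49, adjusted p = 0.000105), C1qa (−5.37, SE 0.59, adjusted p = 3.29e-05), Lyz2 (−4.15, SE 0.46, adjusted p = 3.39e-05) and C1qb (−2.10, SE 0.49, adjusted p = 0.00559), 4 of 10 members, where 6.78% of genes tested were lower. For Mrc1, C1qa and Lyz2 most of the difference lay in the cultures: their levels in 46LCNEC dishes rest on 7, 3 and 5 reads in all, and they were higher in 57SCLC flasks as given above. The call for C1qb, which rests on 0 and 5 reads in culture, is lost with edgeR, DESeq2, a pseudocount of 5 or scaling by library size, and without any one of 8 of the 12 samples (adjusted p = 0.0115 to 0.0152, limma). Cd74 changed by more in 57SCLC (3.95, SE 1.501) without passing (adjusted p = 0.057), and passed without tumor 321 (5.59, adjusted p = 9.02e-05). The latter fit leaves out the tumor singled out for its class II values, so it is no independent support.

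The ligands of the receptor encoded by Csf1r differed between the lines. Csf1 measured 70387, 69964 and 76091 normalized counts in 46LCNEC cells, 16019, 13617 and 13673 in 46LCNEC_allo, 116, 93.5 and 76.1 in 57SCLC cells, 1489, 1256 and 1880 in 57SCLC_allo and 2628, 2699.8 and 3088 in Lung. The LCNEC cells held the most of any group and the SCLC cells the least. Csf1 was lower in 46LCNEC_allo than in its cells (log2FC −2.32, SE 0.13) and higher than in Lung (2.36, SE 0.11), whereas it was higher in 57SCLC_allo than in its cells (4.004, SE 0.20). The LCNEC tumors held more than the SCLC tumors (57SCLC_allo against 46LCNEC_allo −3.24, SE 0.16, adjusted p = 1.82e-05). Il34, the other ligand, was also lower in 57SCLC_allo than in 46LCNEC_allo (−3.39, SE 0.41). Its normalized counts were 795, 1370.4 and 2465 in the LCNEC tumors, 170.0, 108 and 125 in the SCLC tumors and 706, 866 and 935 in Lung.

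**Figure D5:**
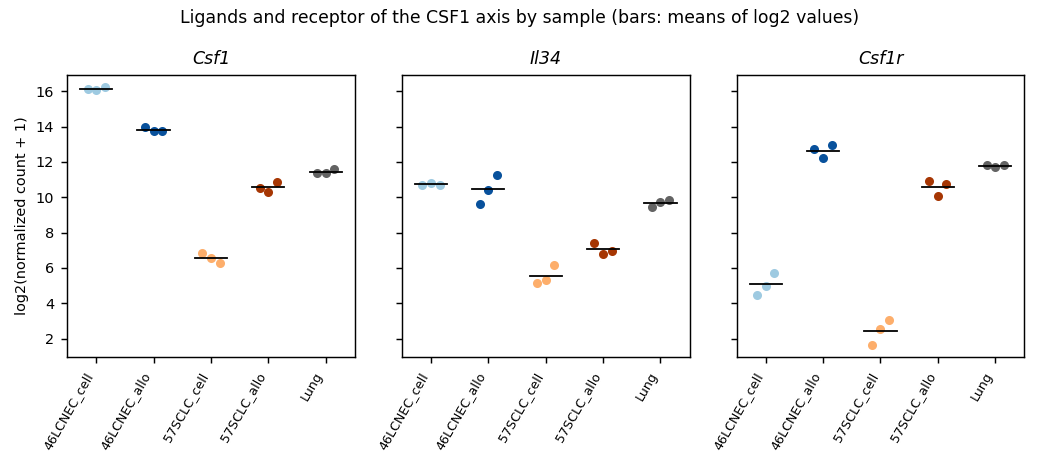
Panels show log2(normalized count + 1) of the ligand genes Csf1 and Il34 and of the receptor gene Csf1r in the 15 samples, as points by group with bars at the means of the log2 values. Both ligands are high in 46LCNEC cells, where the receptor is low, and all of the 3 genes are higher in 46LCNEC_allo than in 57SCLC_allo.

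Other genes of the CSF1 and related GM-CSF systems moved between cells and tumors. Of 5 listed genes, 4 were tested against cells, with 2 higher and 1 lower in 46LCNEC_allo and 4 higher in 57SCLC_allo. The GM-CSF receptor chains Csf2rb (log2FC 9.97 and 9.29) and Csf2ra (6.61 and 1.58) were higher in the tumors of both lines. Of all genes tested, 14.4% were higher than in cells in each tumor type. Against Lung the list gave 1 higher and 1 lower in 46LCNEC_allo and 2 lower in 57SCLC_allo, of 5. The shares of all genes there were 13.4% higher and 22.1% lower in 46LCNEC_allo, and 18.9% and 26.9% in 57SCLC_allo.

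Of 26 other macrophage genes, 25 were tested and Itgam was at 0 in all 15 samples. Against their own cells, 20 were higher in 46LCNEC_allo and 24 in 57SCLC_allo, with none lower, and the median log2FC was 7.47 and 7.38, where the median over all genes tested was 0.00 in both. Of all genes tested, 14.4% were higher than in cells in each tumor type. Against Lung, 11 were higher and 2 lower in 46LCNEC_allo (median 1.16, all genes −0.14) and 9 higher and 5 lower in 57SCLC_allo (0.32, all genes −0.09). The shares of all genes there were 13.4% higher and 22.1% lower in 46LCNEC_allo, and 18.9% and 26.9% in 57SCLC_allo. The high-affinity IgG receptor gene Fcgr1 was higher than Lung in both tumor types (2.61, SE 0.31, and 1.37, SE 0.21), as was osteopontin, Spp1 (2.95, SE 0.44, and 1.46, SE 0.26). The LCNEC cells already held 15063 to 22655 normalized counts of Spp1, and 57SCLC cells at most 0.603. Between the tumor types 2 of the list were higher and 5 lower in 57SCLC_allo, where 14.2% of all genes tested were lower. Chosen after their values were seen, Arg1, the arginase gene, was higher in 57SCLC_allo (2119, 1206 and 2019 normalized counts against 78.1, 205 and 126, log2FC 3.76, adjusted p = 0.00027, limma). Cx3cr1, the fractalkine receptor gene, was lower (433, 471 and 791 against 7013, 6077 and 7513, −3.65, adjusted p = 4.03e-05, limma).

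Of 15 other class II pathway genes, H2-Oa was at 0 in all samples. Against cells, 9 of 13 tested were higher in 46LCNEC_allo and 7 of 13 in 57SCLC_allo, with none lower. Of all genes tested, 14.4% were higher than in cells in each tumor type. Against Lung, 1 was higher and 2 lower of 14 in 46LCNEC_allo, and 7 were lower and none higher in 57SCLC_allo. The shares of all genes there were 13.4% higher and 22.1% lower in 46LCNEC_allo, and 18.9% and 26.9% in 57SCLC_allo. The cathepsin gene Ctss, whose enzyme trims the invariant chain, was higher in tumors than in cells (log2FC 9.97 and 9.73) and was not called against Lung (0.14 and −0.40). Ciita was higher in 46LCNEC_allo than in its cells (4.67, SE 1.07, adjusted p = 0.00903), a call lost without any one dish or tumor 312, and lower in 57SCLC_allo than in Lung (−2.39, SE 0.21, adjusted p = 2.07e-05). H2-Eb1, the β chain gene beside H2-Aa, was uneven within groups, at 9659, 389 and 6888 normalized counts in Lung, 505, 248 and 558 in 46LCNEC_allo and 127, 890.4 and 72.6 in 57SCLC_allo. It did not follow H2-Ab1: their ratio ranged from 0.0429 to 0.799 in Lung and was 0.0334 in tumor 321.

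Of 8 complement partners of C1q, 4 were higher in 46LCNEC_allo and 7 in 57SCLC_allo than in cells, with none lower. Of all genes tested, 14.4% were higher than in cells in each tumor type. Against Lung, 2 were higher and 2 lower in 46LCNEC_allo and 2 higher and 5 lower in 57SCLC_allo. The shares of all genes there were 13.4% higher and 22.1% lower in 46LCNEC_allo, and 18.9% and 26.9% in 57SCLC_allo. C3ar1, the receptor of the C3a fragment, was among the higher in both (log2FC 3.42 and 2.71). The proteases that C1q activates had other values: C1ra stood at 1200.0, 195 and 866 normalized counts in 46LCNEC_allo and 1212, 1470.1 and 1361 in Lung (−1.19, adjusted p = 0.147), and was lower in 57SCLC_allo (−2.43, SE 0.23), as was C1s1 (−1.79, SE 0.29). The C1 inhibitor gene Serping1 was lower than Lung in both (−5.55, SE 0.98, and −1.36, SE 0.26), although the LCNEC call is lost without any one Lung sample. Thus the C1q chains were above lung while C1ra, C1s1 and Serping1 were not.

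Markers of other cell types were set beside these values. Of all genes tested, 14.4% were higher than in cells in each tumor type. Against Lung the shares of all genes were 13.4% higher and 22.1% lower in 46LCNEC_allo, and 18.9% and 26.9% in 57SCLC_allo. Pan-leukocyte genes were higher in tumors than in cells (6 and 5 of 6), and against Lung 1 and 4 of 6 were lower. Ptprc, the gene of CD45, measured 1359, 899 and 2730 normalized counts in 46LCNEC_allo, 776, 504 and 777 in 57SCLC_allo and 3891, 3560.5 and 3628 in Lung. Against Lung, 7 of 8 dendritic cell markers were lower in each tumor type, and 5 and 6 of 6 tested B cell markers were lower, with Ms4a1 at 0 in all samples. Of 7 T cell markers none was called in 46LCNEC_allo and 7 were lower in 57SCLC_allo. Yet the summed T cell markers stood at 4.24% and 2.69% of the mean of Lung in LCNEC tumors 312 and 319, and at 51.9% in tumor 321. The absence of calls in this uneven group therefore does not place the LCNEC tumors at the level of Lung. Monocyte markers gave 1 higher and 1 lower of 6 in 46LCNEC_allo and 2 and 2 in 57SCLC_allo, and neutrophil markers 1 higher and 1 lower of 8 and 5 lower of 6. Of the lymphatic endothelial markers, 5 of 5 were lower in 46LCNEC_allo, and 1 was higher and 4 lower in 57SCLC_allo. The higher one, Prox1, was expressed by the cultured 57SCLC cells themselves (mean 10257.5 normalized counts, against 190 in Lung). Interferon gamma response genes gave 1 higher of 8 in 46LCNEC_allo and 1 higher and 5 lower of 7 in 57SCLC_allo. The part of any of these cells in the members' values was not tested.

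Levels of different members were compared per kilobase of the canonical transcript. In the LCNEC tumors C1qa stood highest of the members (mean 17706 normalized counts per kilobase), followed by Cd74 (13139) and Lyz2 (7517). The SCLC tumors had the same order, with 9719, 5013 and 2640. In Lung Lyz2 was first (31093), Cd74 second (19176) and C1qa (2149) came after the class II genes. In both tumor types and in Lung, Adgre1 was the lowest of the 10 (429, 95.02 and 113 per kilobase). In both lines in culture Cd68 was first.

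The groups fell into different orders for the members. For Cd68, C1qa and C1qb the order of the means was 46LCNEC_allo, 57SCLC_allo, Lung and then the cells, and for Adgre1, Csf1r and Mrc1 it was 46LCNEC_allo, Lung, 57SCLC_allo and the cells. For Lyz2 and the class II genes it was Lung, 46LCNEC_allo, 57SCLC_allo and the cells. For the 3 class II genes the place of 46LCNEC_allo came from tumor 321, since tumors 312 and 319 lay below every SCLC tumor, with means of 575 against 2137 normalized counts for H2-Aa, 832 against 2720 for H2-Ab1 and 1895 against 7174 for Cd74. Neighbours overlapped in several of these orders, such as the tumor types for Cd68 and C1qa and Lung and 57SCLC_allo for Adgre1 and Mrc1.

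The genes with the most similar profiles were sought by the root mean square difference of centred log2 values over the 15 samples, among 19626 genes. C1qb was nearest to C1qc (0.53) and Fcgr2b (1.26), and Csf1r to Nckap1l (0.48) and Trem2 (0.63). H2-Aa and H2-Ab1 were nearer to each other (0.30) than to any non-member, of which Ighm, the IgM heavy chain gene, was the closest to both (0.73 and 0.80), with Slfn5 next (1.03 and 1.14). Cd74 was nearest to Iigp1 (0.66) and Sp100 (0.92), Adgre1 to Lrrc25 (0.58) and Ly86 (0.66), Mrc1 to Heyl (0.60) and Il10ra (0.71), Cd68 to Gpr35 (0.35) and D630033A02Rik (0.39), Lyz2 to Cdh5 (1.225) and Nrros (1.27), and C1qa to Il10ra (1.46) and Laptm5 (1.56). Of these 20 pairs, 16 were also found from the 5 group means. The samples share libraries and groups, so these distances are descriptions.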

How the data were processed

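Mouse cell, allograft and lung RNA was poly-A selected and sequenced as paired reads of 150 bases. Per the paper's methods and the labels, the authors used Rbowtie2 for alignment to GRCm39, featureCounts for counts over GENCODE M27 genes, and DESeq2 size factors for scaling, and the deposited values are this normalized signal (normalized counts). All values were whole multiples of 1 read (100% within 0.1 read), so reads were recovered for edgeR and DESeq2. The matrix held 55359 genes, of which 25369 were at 0 throughout, and 54749 identifiers (98.9%) were found in GENCODE release 39.

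Comparisons used limma 3.58.1 (R 4.3.3) on log2(normalized count + 1), keeping genes that reached 10 normalized counts in 3 or more of the samples compared, without covariates. Calls needed an adjusted p (Benjamini and Hochberg) not above 0.01 and a log2 fold change of 1 or more in either direction. Alternatives were edgeR 4.0.16, DESeq2 1.42.0, other pseudocounts (0.1 and 5), scalings, filters and thresholds, and each sample left out. The script was tested on simulated data, where 200 of 200 changed genes were recovered among 16375 for 46LCNEC_allo against 46LCNEC_cell. The changed genes there were well expressed, had a log2 fold change of 2 in size and shared a common spread. The test therefore does not cover genes near 0 in the cultures or as uneven as the class II genes in the LCNEC tumors. The floor was 3 reads, and intervals cover counting error only. Depth was 9480244 to 44876572 reads.

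The members and the 14 other gene lists were chosen with earlier results of these data known. Named were the members, the first 2 genes of each list and the 2 with the largest called change against cells in either tumor type, the 2 nearest genes of each member, the deleted genes, Lyz1 and neighbouring paralogs. The replicates are dishes or flasks of 1 line, tumors of 1 line or littermate lungs, so p-values measure the spread between these samples. Results for 1 further deleted gene and for some list genes are not reported here.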

Additional observations from a re-analysis of the deposited data

Results flagged for a closer look

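The change from culture to allograft differed between the 57SCLC and 46LCNEC lines for 4 genes, by a test of the difference itself (limma, 12 samples). The difference of log2 fold changes was −3.85 for Mrc1, −5.37 for C1qa, −2.10 for C1qb and −4.15 for Lyz2, each smaller in 57SCLC. Of all genes tested, 6.78% were lower in this contrast. The call for C1qb rests on 0 reads in 46LCNEC and 5 in 57SCLC cultures. It is lost with edgeR, DESeq2, a pseudocount of 5 or scaling by library size, and without any one of several samples. In 57SCLC cells C1qa already stood at 31.3 to 45.8 normalized counts, Mrc1 at 16.9 to 20.7 and Lyz2 at 10.4 to 18.5, against at most 2.81 for these genes in 46LCNEC cells. Groups of 3 samples are too small for a test of single outlying samples, so the values of tumor 321 are given as measured.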

How the results depend on the processing

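Of the member fold changes recomputed under the alternatives, 1446 kept their direction and side of the threshold, 39 lost a call, 19 gained one and 20 turned sign. All 10 members stayed called in 57SCLC_allo against its cells and in both lines against Lung under each setting run, and in 46LCNEC_allo against its cells 9 or 10 did, or 8 with DESeq2, which gave no adjusted p for the other 2 (H2-Aa and Cd74, there and against Lung). Against Lung, the members called in 46LCNEC_allo fell from 4 to 2 when a fold of 2 was tested, with 0 lower, and ranged from 2 to 8 (0 to 4 lower) with a sample left out. In 57SCLC_allo they fell from 7 to 4 in the fit over all 15 samples, with 2 lower, and 3 were lower when a fold of 2 was tested. In 57SCLC_allo against 46LCNEC_allo the 2 lower calls became 0 when a fold of 2 was tested, and 5 with all 15 samples, DESeq2 or an adjusted p of at most 0.05. With a sample left out 1 to 3 members were called there, 1 to 3 lower and 0 to 1 higher, and 0 to 1 higher in the difference between lines. Where no alternative's construction shows it, the cause was not tested.

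Values that turned sign were uncalled, except where stated. In 57SCLC_allo against 46LCNEC_allo, edgeR and DESeq2 gave −1.08 and −1.06 for H2-Aa, −1.15 and −1.13 for H2-Ab1 and −1.37 and −1.35 for Cd74. H2-Aa was −0.16 and −0.59 without tumors 312 and 319, H2-Ab1 −0.24 and −0.73, and −0.04 without tumor 275, and Cd74 −0.19 and −0.84, and −0.04 without tumor 275. The highest values, without tumor 321, were 1.89, 1.72 and 1.95. Cd68 was 0.088 with scaling by library size, which moved the median of all genes by 0.27, and ranged from −0.28 to 0.033 with a sample left out, positive without tumor 316. Mrc1 against Lung ranged from −0.61 to 0.047, positive without tumor 316. In the difference between lines, Csf1r was −0.074 with a pseudocount of 5, and with a sample left out H2-Aa ranged from −0.20 to 2.28 and H2-Ab1 from −0.37 to 2.08, negative without tumor 319 and highest without tumor 321.

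The letters A, B and C do not pair the cell cultures (correlations of deviations 0.0916, −0.0837 and −0.00619), and a replicate block in 57SCLC_cell against 46LCNEC_cell left 5 members called. Depth limits the culture levels, where several genes rest on 0 to 7 reads. Further limits are 1 line per tumor type, 3 samples per group, no subcutaneous control tissue and bulk RNA, so that cell numbers and RNA per cell were not separated.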

Other observations

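Of the 26 other macrophage genes, 14 were highest of the LCNEC tumors in tumor 321, the tumor with high class II values, and 4 were lowest. Cd163 and Siglec1, receptor genes of macrophages chosen after their values were seen, went opposite ways, at 0.406 and 2.04 times the mean of tumors 312 and 319. The interferon response gene Gbp2 stood at 5.52 times that mean. With 1 tumor no test was possible.

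Msr1, a scavenger receptor gene chosen after its values were seen, was higher than Lung in both tumor types (log2 fold change 3.28 and 2.81, limma). Gpnmb was lower than Lung in 46LCNEC_allo (−3.29) and not called in 57SCLC_allo (0.32), and Cd14 was lower than Lung in 57SCLC_allo (−1.52) and not called in 46LCNEC_allo (0.71). Between the tumor types themselves, 57SCLC_allo held more Gpnmb (3.61) and less Cd14 (−2.23) than 46LCNEC_allo, both called by limma.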
